A study of Homo sapiens with 6 samples.

Results

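The mitochondrial ribosomal protein genes are the nuclear genes that encode the protein part of the ribosome inside mitochondria. They were taken as every protein-coding gene of the count table whose symbol begins with MRPL or MRPS followed by a digit. This gave 78 of the 20263 genes in the table, 49 with an MRPL and 29 with an MRPS symbol, and all 78 had enough counts to be tested. Messenger RNA was measured by RNA-seq in MV4-11 cells, an established human acute myeloid leukemia line with a KMT2A-AFF1 fusion and an internal tandem duplication in the receptor kinase gene FLT3. All groups are this line, labelled wild type, after 24 h of treatment. The venetoclax group received 100 nM venetoclax, an inhibitor of the survival protein BCL2. The CSA group received 2.5 µM CSA, the usual short name of cyclosporin A, which binds cyclophilins and inhibits calcineurin. The combination group received both agents, at doses the labels do not give separately. Each group had 2 libraries, 6 in all. Untreated cells, which the design names, were not analysed here. The labels do not say whether replicates are separate cultures, so a p-value here covers only the spread between the libraries, which may be technical.

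The mitochondrial ribosome translates the mRNAs of the mitochondrial genome, all of which encode subunits of the oxidative phosphorylation complexes. Its RNAs come from mitochondrial DNA, while every one of its proteins is made in the cytosol and imported. Some of these proteins descend from those of the bacterial ribosome and others exist only in mitochondria. The symbols do not always give the subunit. MRPS30 and MRPS18A, named for the small subunit, sit in the large one, where they are called mL65 and mL66. MRPS36 is no part of the ribosome structure and is now known as KGD4, a subunit of the oxoglutarate dehydrogenase complex. By the structural names the genes divide into 51 of the large subunit, 26 of the small subunit and MRPS36. Of these, 46 are named as counterparts of a bacterial protein (30 large, 16 small) and 31 as specific to mitochondria (21 large, 10 small). This split follows the structural names and not descent. The 31 include MRPS18A and MRPS18B, which are relatives of bacterial bS18 under names of their own.

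No mitochondrial ribosomal protein gene changed past the threshold in any of the 3 comparisons between treatments. With all 6 libraries, edgeR's quasi-likelihood test at a Benjamini-Hochberg adjusted p of 0.05 called 0 of 78 in the combination against venetoclax, the combination against CSA and venetoclax against CSA alike. It also called 0% of the 12690 genes tested in each, so this count is not particular to these genes. None of the 78 had an unadjusted p under 0.05, against 10.8%, 3.64% and 4.8% of all genes tested in the same order of comparisons. Over the 6888 tested genes within the members' range of mean level, those shares were 9.68%, 3.05% and 4.09%. The fitted changes spanned −0.63 to 0.41, −0.59 to 0.43 and −0.67 to 0.67 on the log2 scale. DESeq2 also called 0 members in each comparison, where it called 2.45%, 0.473% and 0.496% of all genes tested. At an unadjusted p under 0.05 it took 1, 0 and 1 member, against 11.7%, 3.54% and 7.09% of all genes. Limma-voom called 0 members in each (0%, 0.00788% and 0% of all genes) and took 0 at an unadjusted p under 0.05 (10.9%, 4% and 4.73%).

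The libraries held 26567900 to 30738957 counts. Venetoclax replicate 2 stood apart from the other 5: counts of mitochondrially encoded genes made up 41.5% of its total, against 7.41% to 15.2% elsewhere, and its TMM scaling factor was 0.657, against 1.02 to 1.12 elsewhere. Results that use the venetoclax group are therefore given with and without this library. Of 12 myeloid leukemia markers, 11 were at 1 CPM (the depth-scaled count) or more in every library, while the T cell markers CD3D, CD3E and CD2 were at 0 throughout. Levels below are CPM scaled by TMM, a method that sets libraries equal over the bulk of their genes. The RNA is from bulk cultures, in which fewer cells and less RNA per cell cannot be told apart.

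The genes were expressed at a moderate level. Their mean CPM over the 6 libraries had a median of 43.5 and ran from 14.3 to 150.5, and 59 of the 78 lay above 26.5, the median of all genes tested. Their transcripts are short, with a median of 1137 nt against 2494 nt for all tested genes, and of like base composition, with a median GC content of 50.3% against 50.1%. Per kilobase of transcript, the median level was 38.5 CPM per kb, and 54 of 78 genes lay within 2-fold of it. The gene at the 90th percentile was 5.25 times as high as the one at the 10th. Large subunit genes had a median of 37.7 and small subunit genes of 39.4 CPM per kb.

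The highest levels per kilobase belonged to MRPL51 at 119 ± 23.7 CPM per kb (SD over 6 libraries), MRPL4 at 106 ± 15.6 and MRPS34 at 97.0 ± 5.51. MRPL51 and MRPS34 encode proteins that only mitochondrial ribosomes have, and MRPL4 the counterpart of a bacterial protein that lines the exit tunnel of the nascent chain. The lowest were MRPS17 at 7.74 ± 1.35, MRPL22 at 8.06 ± 1.96 and MRPL50 at 11.2 ± 1.12 CPM per kb. MRPS36, which is not a ribosomal subunit, came next from the bottom at 12.4 ± 2.13. Within 1 SD the highest 3 overlap, as do MRPS17 with MRPL22 and MRPL50 with MRPS36. That SD spans all treatments, and the genes share their libraries, so overlap alone does not settle an order. MRPL51 was above MRPL4 and MRPS34 in every library but venetoclax replicate 2 (74.0 against 124 and 97.4 CPM per kb). The other orders varied between libraries, and none was tested. A level per kilobase depends on the transcript length assumed, here the median over annotated coding transcripts, and MRPL22, MRPS23 and MRPL50 have the longest of the 78 (3098.5, 3100.5 and 3332 nt). In CPM without division by length, MRPL22 ran from 13.8 to 30.5 and MRPL50 from 34.8 to 44.5.

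**Figure D1:**
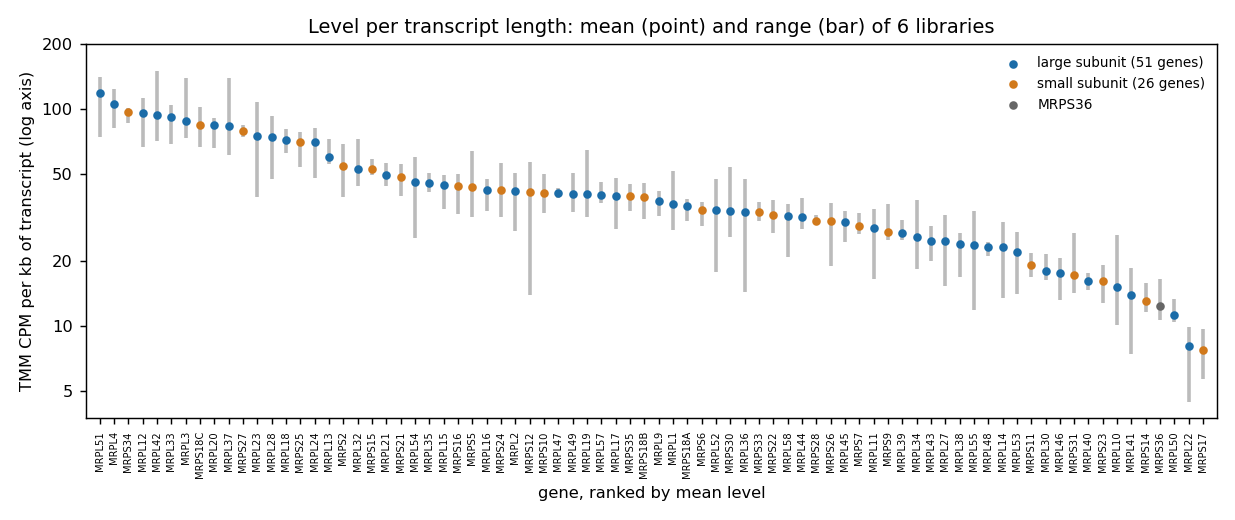
Level of each of the 78 genes in TMM-scaled CPM per kilobase of transcript (log axis), ranked by mean. Points are means of 6 libraries, coloured by subunit, and bars run from the lowest to the highest library. Large and small subunit genes are mixed along the whole order, from MRPL51 at 119 to MRPS17 at 7.74 CPM per kb.

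The genes are scattered over 21 chromosomes, and many start close to another gene. A coding neighbour that runs in the opposite direction starts within 1000 nt of 29 of them (37.2%), against 2566 of 19722 coding genes in the table (13.0%). That background includes genes with too few counts to be tested, while all members were tested. The share among tested genes alone was not computed. In 1 case both neighbours are members: MRPL46 (GRCh38, chromosome 15, 88459476 to 88467419, minus strand) and MRPS11 (88467453 to 88480773, plus strand) start 34 nt apart. Others share their start region with genes of mitochondrial function: MRPL36 with NDUFS6 and MRPL47 with NDUFB5, both for complex I, MRPL43 with TWNK, the mitochondrial DNA helicase, and MRPS12 with SARS2, the mitochondrial seryl-tRNA synthetase. These pairs were picked out of the 29 after their values were seen. In addition, 38 members overlap another coding gene, and 34 have at least 1 pseudogene named after them in the annotation (75 in all). The sources do not state whether strand was used in counting, so reads of overlapping genes on opposite strands may not be told apart, and reads of a gene and its pseudogene may be split.

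The promoters are shown because members that are described together may share letters at their starts. RefSeq (GRCh38.p14) windows of 300 bases, 250 before the start and 50 after it, were available for 69 of the 78 genes. Each window was searched on both strands for 7 short motifs, each on its own, so that a base could count for more than 1 motif. A gene could have more than 1 window, and it was counted where any of them held a match. The number of windows per gene was not compared between members and other genes. The ETS core CCGGAAG, bound by factors such as GABPA, was in the windows of 30 members (43.5%) and 22.6% of the 10106 tested coding genes with a window. The letters AANATGGC, the core bound by the zinc finger factor YY1, were in 26 members (37.7%) and 12.7%. At least 1 of both was in 48 members (69.6%) and 32.1%, and both were in 8 members (11.6%) and 3.1%.

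Their positions were also near the start. The ETS letters lay between 60 bases before and 30 after the start in 25 members (36.2%), against 14% of tested coding genes. The YY1 letters lay after the start in the direction of the gene in 23 members (33.3%), against 5.84%, and in 19 of the 23 the ATG within them is the annotated start codon. These letters therefore belong to the first codons as well as to the motif. Other motifs were no more common than elsewhere. The NRF1 consensus was in 13% of members and 13.3% of tested genes, the E-box CACGTG in 13% and 12.8%, the GC box GGGCGG in 60.9% and 75.4%, CCAAT in 33.3% and 43.1%, and TATAAA in 4.35% and 8.59%. A match is a run of letters and was not tested for binding.

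The start regions of 6 genes, from 50 bases before to 30 after the start, show these letters. They are written 5′ to 3′ along the gene, with the ETS letters CCGGAAG and the YY1 letters AANATGGC in capitals. MRPL20 (chr1:1407264-1407343, minus strand) has the ETS letters in 2 places and the YY1 letters after the start, where their ATG is not an annotated start codon. MRPS10 (chr6:42217832-42217911, minus) and MRPS18A (chr6:43687762-43687841, minus) have 1 of each in the same order, with the ATG of the YY1 letters as the annotated start codon, as has MRPL47 (chr3:179604609-179604688, minus), which is head to head with NDUFB5. MRPS12 (chr19:38930894-38930973, plus) has the ETS letters alone, and MRPL46 (chr15:88467359-88467438, minus) the YY1 letters alone, again at the start codon.
MRPL20: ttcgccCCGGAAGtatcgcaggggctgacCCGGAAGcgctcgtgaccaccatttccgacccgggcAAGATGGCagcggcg
MRPS10: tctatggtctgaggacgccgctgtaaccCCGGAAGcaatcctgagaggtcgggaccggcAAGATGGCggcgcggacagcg
MRPS18A: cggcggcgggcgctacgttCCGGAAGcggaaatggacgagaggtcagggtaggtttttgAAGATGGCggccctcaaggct
MRPL47: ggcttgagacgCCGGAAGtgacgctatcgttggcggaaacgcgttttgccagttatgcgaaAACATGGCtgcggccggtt
MRPS12: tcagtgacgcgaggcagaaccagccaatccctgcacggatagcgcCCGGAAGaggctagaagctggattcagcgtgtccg
MRPL46: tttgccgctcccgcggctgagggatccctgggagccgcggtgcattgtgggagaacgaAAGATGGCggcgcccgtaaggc

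**Figure D2:**
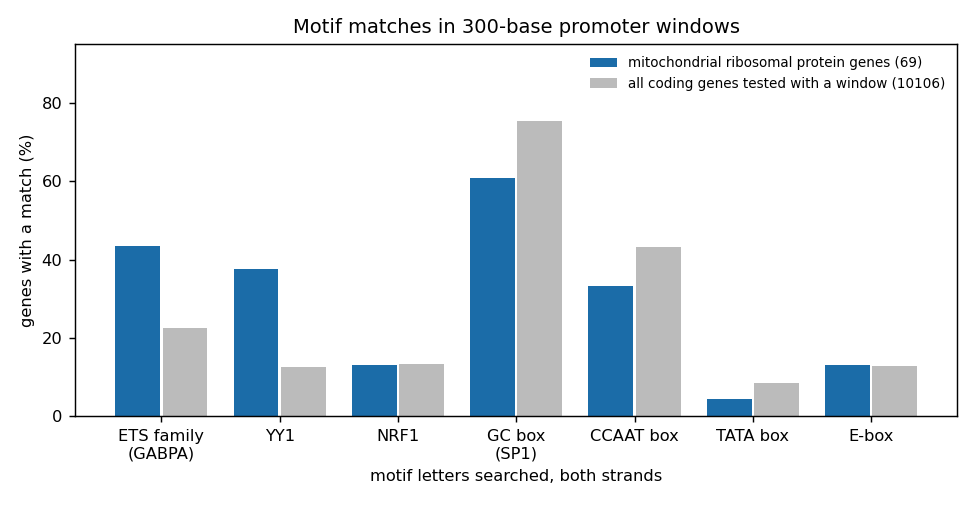
Percentage of genes with at least 1 match to each of 7 motifs in any of their 300-base promoter windows, for 69 mitochondrial ribosomal protein genes (blue) and 10106 tested coding genes with a window (grey). The ETS and YY1 bars are higher for the members (43.5% against 22.6%, 37.7% against 12.7%), the NRF1 and E-box bars are level, and the others are lower.

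On the TMM scale, the mRNA pool of the mitochondrial ribosome was nearly the same size in the 6 libraries. Summed over the 78 genes it was 3970 and 3898 CPM under venetoclax, 4001 and 3911 under CSA, and 3834 and 3777 under the combination. The 2 combination libraries were the lowest, by a margin no larger than the gap between replicates of CSA. As a percentage of counts from nuclear genes, the sums were 0.479% and 0.438% (venetoclax), 0.481% and 0.470% (CSA), and 0.465% and 0.453% (combination). On that scale venetoclax replicate 2 was the lowest, venetoclax overlapped both other groups, and the combination lay just below CSA. As a percentage of all counts, mitochondrially encoded ones included, the sums were 0.441% and 0.256% (venetoclax), 0.445% and 0.424% (CSA), and 0.428% and 0.384% (combination). Venetoclax replicate 2 was far below the other 5 libraries on this scale. The sum over large subunit genes was 1.72 to 1.82 times that over small subunit genes in every library.

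Single genes were also steady, with venetoclax replicate 2 as the exception. Over the other 5 libraries, the highest value of a gene divided by its lowest had a median of 1.28, from 1.07 for MRPS15 to 2.27 for MRPL10. It stayed under 1.5 for 59 of 78 genes (75.6%), against 62.4% of all genes tested and 77.8% of tested genes within the members' range of mean level. Venetoclax replicate 2 held the lowest of the 6 values for 40 members and the highest for 25, where all tested genes had 35.8% and 35.6%.

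**Figure D3:**
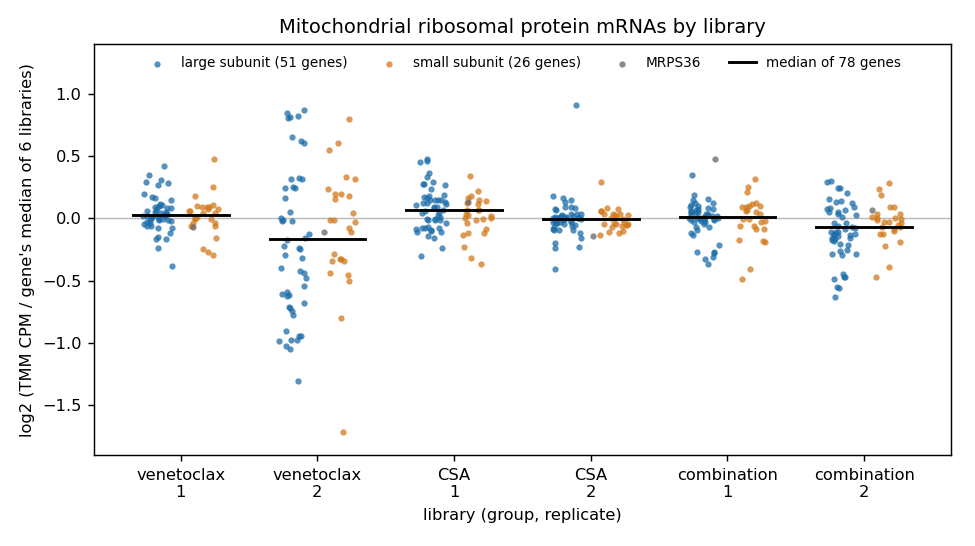
Each point is 1 gene in 1 library, as log2 of its TMM-scaled CPM over its own median of the 6 libraries. Columns are libraries, colours are subunits, and the black line is the median of 78 genes. Points of venetoclax replicate 2 are spread widely on both sides of 0, and those of the other 5 libraries lie close to it.

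The combination against CSA asks what venetoclax adds to CSA, and does not use the venetoclax libraries except for the shared estimate of spread. More members were lower than higher (52 against 26), with a median log2 fold change of −0.075, against −0.0020 for all genes tested. The median SE of a member was 0.23, and the smallest adjusted p was 0.9999. The groups did not overlap for 11 members higher and 21 lower under the combination, or 14.1% and 26.9% of 78. Among all genes tested the shares were 23.5% and 23.7%. Large subunit genes had a median of −0.08 (14 higher, 37 lower) and small subunit genes of −0.03 (11 higher, 15 lower). Only 1 member (1.28%) was past 0.5 in either direction, against 12% of all genes tested and 5.27% of tested genes in the members' range of level.

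Among the genes highest under the combination against CSA was MRPL1, whose product forms the stalk where the emptied tRNA leaves the large subunit. Its levels were 41.4 and 45.6 CPM under CSA and 56.9 and 60.5 under the combination. Both combination libraries were above both CSA libraries, and the fitted log2 fold change was 0.43 ± 0.29 (SE). MRPS10, a protein of the head of the small subunit whose promoter is printed above, was at 70.1 and 81.5 CPM under CSA, and at 93.8 and 106 under the combination. Here too the groups did not overlap, at a log2 fold change of 0.40 ± 0.21. MRPS18C, the human protein in the place of bacterial bS18, was at 44.6 and 55.7 under CSA and 62.9 and 67.9 under the combination (0.38 ± 0.19). The other 2 of the highest 5 were MRPS36 (0.29 ± 0.22), with overlapping groups, and MRPL42 (0.28 ± 0.29), without overlap. The adjusted p of each was 0.9999.

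At the other end was MRPL10, which anchors the stalk that recruits the translation factors. It was at 23.0 and 45.4 CPM under CSA, and at 20.01 and 25.4 under the combination. CSA replicate 2 was the highest of all 6 libraries and its replicate was within the combination's range, so the log2 fold change of −0.59 ± 0.38 rested on that 1 library and was −0.02 without it. MRPL12, which MRPL10 carries as the mobile part of the stalk, was at 115 and 104 CPM under CSA, and at 104 and 85.2 under the combination (−0.21 ± 0.27). MRPL11, at the base of the stalk, was at 52.7 and 49.1 under CSA, and at 47.6 and 33.0 under the combination (−0.34 ± 0.36). The rest of the lowest 5 were MRPL55 (−0.42 ± 0.46), MRPL14 (−0.39 ± 0.41), MRPL54 (−0.37 ± 0.42) and MRPL36 (−0.36 ± 0.52). Of these 4, only MRPL36 had groups that did not overlap, at 24.2 and 23.4 CPM under CSA and 19.4 and 17.5 under the combination.

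A fit without venetoclax replicate 2 left these fold changes in place, since neither group contains that library, but lowered the median SE of a member to 0.13. The median of members was then −0.076, and 0 of 78 were called, against 24 genes (0.185%) of all tested. At an unadjusted p under 0.05 there were 5 members, against 12% of all genes tested. MRPL1 (unadjusted p = 0.0082), MRPS10 (0.021) and MRPS18C (0.038) were higher, and MRPL36 (0.028) and MRPL28 (0.037) lower, with edgeR adjusted p-values between 0.299 and 0.399. MRPL28 was named after its value was seen: it was at 90.2 and 76.4 CPM under CSA, and at 67.0 and 66.4 under the combination. With the replicate number as a block in that fit, 18 of the 78 were at an unadjusted p under 0.05, against 21.6% of all genes tested, and 0 were called. The 5 of 78 are a smaller share than that of all genes, and the 18 of 78 are not.

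The combination against venetoclax asks what CSA adds to venetoclax. Members were divided about evenly, 43 higher and 35 lower, with a median of 0.03, against −0.01 for all genes tested. The median SE was 0.23 and the smallest adjusted p was 0.464. The groups did not overlap for 10 members higher and 8 lower (12.8% and 10.3% of 78), against 19.2% and 18.9% of all genes tested. Large subunit genes had a median of 0.04 (29 higher, 22 lower), and small subunit genes were split 13 to 13. Past 0.5 in either direction were 5 members (6.41%), against 25% of all genes tested and 16.9% of those in the members' range of level.

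The genes at the extremes of this comparison were mostly those in which the 2 venetoclax libraries disagreed. MRPL37, a large subunit protein specific to mitochondria, had the lowest log2 fold change, −0.63 ± 0.31. It was at 111 and 206 CPM under venetoclax, and at 90.7 and 115 under the combination. MRPL19 (40.5 and 69.6 under venetoclax, 34.3 and 42.3 under the combination) and MRPS30 (51.8 and 90.5, then 43.2 and 55.1) had the same pattern, with venetoclax replicate 2 far above the other 3 libraries. Without that library the log2 fold changes were −0.11 for MRPL37, −0.08 for MRPL19 and −0.07 for MRPS30. MRPS31 was at 23.7 and 39.3 under venetoclax and 21.2 and 23.2 under the combination, a narrow separation (−0.50 ± 0.27, and −0.09 without venetoclax replicate 2). MRPS5, the counterpart of a bacterial protein at the mRNA entrance, was at 74.0 and 106 under venetoclax, and at 52.5 and 67.8 under the combination. Its groups did not overlap, and its log2 fold change was −0.58 ± 0.24, or −0.30 without that library.

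On the higher side, MRPS17 was at 13.96 and 10.5 CPM under venetoclax, and at 17.8 and 14.7 under the combination (0.41 ± 0.24). MRPS36 was at 13.5 and 13.1 under venetoclax, and at 19.6 and 14.8 under the combination (0.38 ± 0.22). Both were separated but at low levels, and were 0.22 and 0.36 without venetoclax replicate 2. MRPL23, MRPL52 and MRPL27, with log2 fold changes of 0.33 to 0.34, were each about as high in venetoclax replicate 1 as with the combination and low in replicate 2. MRPL23, for instance, which sits at the mouth of the exit tunnel, was at 51.8 and 25.1 under venetoclax, then 53.7 and 44.1 under the combination. Without that library the 3 were between −0.10 and −0.02.

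Without venetoclax replicate 2, the median of members in this comparison was −0.07 in place of 0.03, with 26 higher and 52 lower. Again 0 of 78 were called, against 49 genes (0.379%) of all tested, and the smallest adjusted p of a member was 0.172. At an unadjusted p under 0.05 there were 6 members, against 15.5% of all genes tested, and 11 with the replicate number as a block, against 21.2%. MRPL1 (0.45 ± 0.13, SE) and MRPS10 (0.49 ± 0.15) were higher. MRPL36 (−0.63 ± 0.14), MRPS24 (−0.60 ± 0.15), MRPL28 (−0.44 ± 0.14) and MRPL44 (−0.39) were lower. This fit has 1 venetoclax library, which is assumed to vary like the other groups. The combination libraries also enter the comparison with CSA, so the appearance of MRPL1, MRPS10, MRPL28 and MRPL36 in both is not independent.

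Venetoclax against CSA asks how the single agents differ. Of the 78 genes, 32 were higher and 46 lower under venetoclax, with a median of −0.10, against −0.0032 for all genes tested. The smallest adjusted p was 0.633. The groups did not overlap for 12 members higher and 11 lower (15.4% and 14.1% of 78), against 20.8% and 19.9% of all genes tested. Without venetoclax replicate 2 the median was −0.0019, 38 were higher and 40 lower, and 0 had an unadjusted p under 0.05, against 4.78% of all genes tested. With the replicate number as a block there were 2, against 10.1%. Past 0.5 in either direction were 11 members with all libraries and 0 without venetoclax replicate 2, where all genes tested had 24.1% and 13.1%.

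MRPL42, a large subunit protein specific to mitochondria, had the highest log2 fold change of venetoclax against CSA, 0.67 ± 0.29. It was at 79.4 and 139 CPM under venetoclax, and at 71.7 and 65.3 under CSA, and without venetoclax replicate 2 the value was 0.21. MRPL3, whose product reaches toward the peptidyl transferase centre, was at 122 and 221 under venetoclax, and at 117 in both CSA libraries (0.55 ± 0.29, and 0.06 without that library). MRPS31, MRPL19 and MRPS30 completed the highest 5, at 0.56, 0.56 and 0.53, or 0.15, 0.11 and 0.07 without that library. The lowest was MRPL10 (−0.67 ± 0.38), at 25.6 and 17.3 under venetoclax against the 23.0 and 45.4 of CSA. MRPL23 (−0.60), MRPS12 (−0.57), MRPL53 (−0.52) and MRPL52 (−0.52) followed. In the fit without venetoclax replicate 2, MRPL10 was at −0.42, MRPL23 at −0.18, MRPL53 at −0.24 and MRPL52 at −0.09. MRPS12 belongs to the decoding centre and was at 65.1 and 16.7 under venetoclax, 68.98 and 52.6 under CSA, and 56.6 and 39.5 under the combination. Its venetoclax libraries were the second highest and the lowest of the 6, and without replicate 2 the log2 fold change was 0.09.

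**Figure D4:**
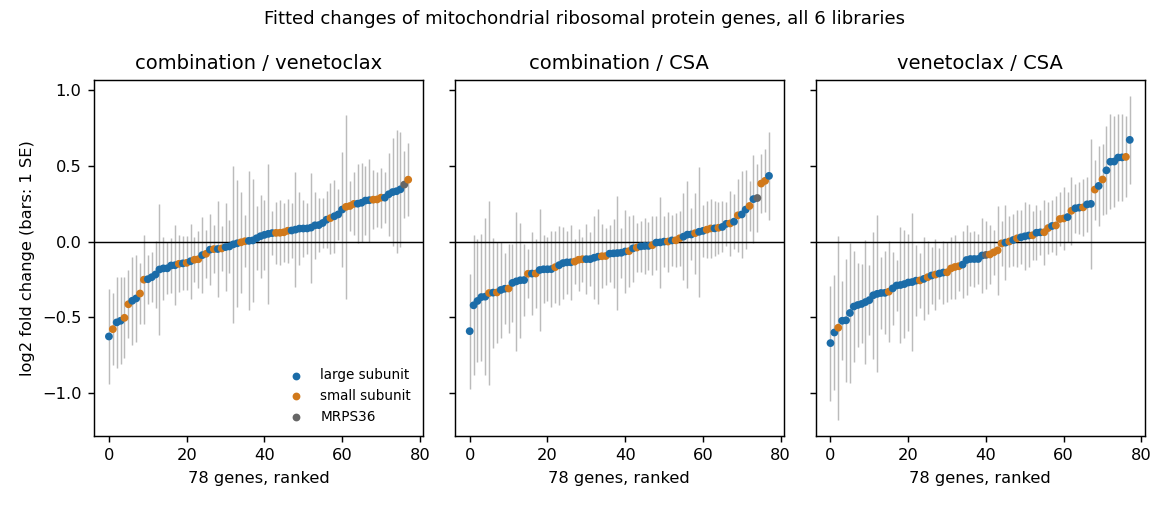
Fitted log2 fold changes of the 78 genes in the 3 comparisons, each ranked from lowest to highest, with bars of 1 SE and colours for subunits. All values lie between −0.67 and 0.67, and none passed the adjusted threshold.

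With all 6 libraries, the other genes with a set role did not pass the threshold either. MRPL45, which holds the large subunit to the inner membrane beside the tunnel exit, was at 45.7 and 39.7 CPM under venetoclax, 49.0 and 55.4 under CSA, and 49.9 and 54.5 under the combination. The venetoclax libraries were the lowest, at a log2 fold change of 0.29 ± 0.17 for the combination against venetoclax, or 0.20 without venetoclax replicate 2. MRPL58, a peptidyl-tRNA hydrolase built into the large subunit, was at 30.8 and 18.5, 32.5 and 30.1, and 32.4 and 27.3 CPM in the same order, with only venetoclax replicate 2 low. The 3 human relatives of bacterial bS18 occupy different places in the ribosome. Per kilobase they were at 84.9 ± 13.2 for MRPS18C, 39.2 ± 4.87 for MRPS18B and 35.9 ± 3.16 for MRPS18A (CPM per kb, SD over 6 libraries). MRPS18C was thus above the other two, which overlap within 1 SD.

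The pairs named above as sharing a start region did not all behave alike: the order of libraries agreed in some and differed in others. The other genes with such a neighbour are not compared here. MRPL46 was at 18 and 15.7 CPM under venetoclax, 20.8 and 19.5 under CSA, and 19.2 and 13.3 under the combination. Its neighbour MRPS11 was at 42.1 and 48.0, 39.5 and 41.7, and 36.9 and 44.7. In each of the 3 groups, replicate 2 was the lower for MRPL46 and the higher for MRPS11. SARS2, the neighbour of MRPS12, was at 40.2 and 34.2 CPM under venetoclax, 55.7 and 56.2 under CSA and 35.7 and 45.3 under the combination. Both CSA libraries were the highest for SARS2, while those of MRPS12 overlapped the other groups. NDUFB5, the neighbour of MRPL47, was at 27.7 and 32.6, 28.9 and 28.6, and 33.3 and 42.1 in the same order. MRPL47 itself was at 46.5 and 46.0, 43.9 and 44.8, and 48.7 and 47.5 CPM. Both combination libraries were the highest 2 of the 6 for both genes, over a narrower range in MRPL47. MRPL36 was at 28.6 and 8.645, 24.2 and 23.4, and 19.4 and 17.5 CPM. NDUFS6, its neighbour, was at 60.8 and 51.3, 60.1 and 58.7, and 56.5 and 53.8, the same order of libraries over a narrower range. MRPL43 was at 19.8 and 22.17, 23.5 and 22.15, and 17.7 and 25.6. Its neighbour TWNK differed in order, at 83.3 and 44.3, 79.7 and 75.8, and 73.9 and 73.7.

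The 2 venetoclax libraries differed more than the replicates of the other groups, and the difference varied with the composition of the transcript. The SD over members of the log2 ratio of replicate 2 to replicate 1 was 0.65 between venetoclax replicates, 0.23 between those of CSA and 0.28 between those of the combination, against 0.80, 0.44 and 0.50 for all genes tested. The ratio was past 2-fold for 11 of 78 members under venetoclax and for 0 under CSA or the combination. The 11 are 14.1% of members, near the 16% of all genes tested under venetoclax, while 3.35% and 4.25% of all genes were past it under CSA and the combination. Of these 11, 10 were lower in replicate 2, with MRPS12 (−1.97) and MRPL36 (−1.73) the farthest, and 1, MRPL34, was higher (1.04). Across the 78 genes of this 1 pair of libraries, the ratio had a Spearman correlation of −0.475 with GC content and 0.28 with transcript length. For all genes tested the correlations were −0.588 and 0.194. The direction was the same in the other groups. Between CSA replicates the members' correlations were −0.26 with GC content and 0.383 with length (all genes −0.255 and 0.107). Between combination replicates they were −0.134 and 0.224 (all genes −0.198 and 0.0657). These are descriptions over genes that share both libraries of a pair.

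By length, the shortest 26 members (461 to 978 nt) had a median log2 ratio of −0.51, and 6 of them were higher in replicate 2. The longest 26 (1483 to 3332 nt) had a median of 0.16, and 14 were higher. The shortest 26 also have the higher GC content (median 54.1% against 47.1%). Mitochondrially encoded mRNAs moved with this split, at 632610 CPM in venetoclax replicate 2 and 66602 to 149750 in the other libraries. The part of base composition, length or mitochondrial RNA content in it was not tested. If venetoclax replicate 1 is left out in its place, so that replicate 2 alone stands for the group, the call changes. The combination against venetoclax then has 7 members higher and 8 lower at an edgeR adjusted p under 0.05, among 26.4% of all genes. Venetoclax against CSA has 10 higher and 20 lower, among 33.8%. MRPS12 (log2 fold change 1.53) and MRPL36 (1.10) led the higher ones against venetoclax, and MRPL37 (−1.003) the lower ones.

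**Figure D5:**
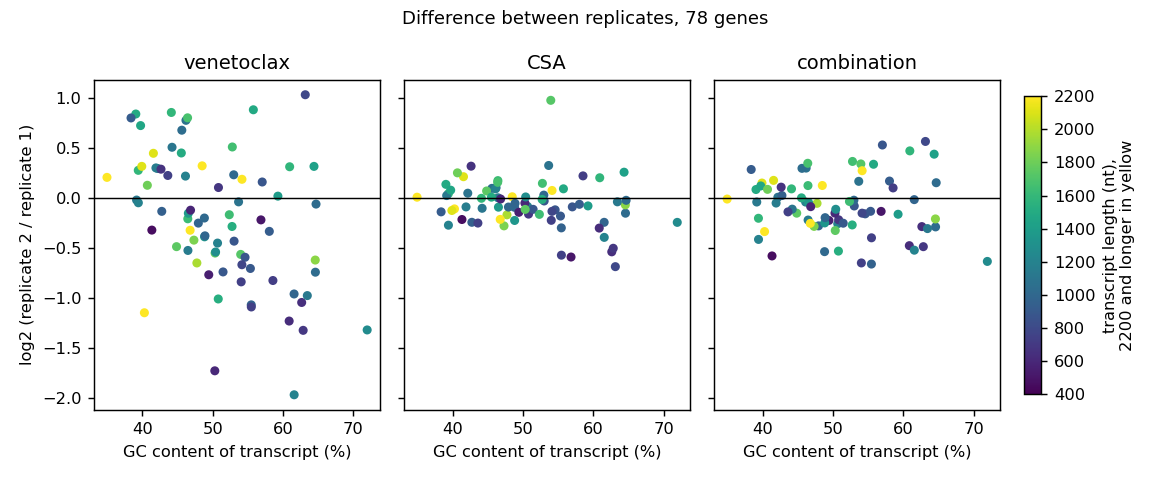
Log2 ratio of replicate 2 to replicate 1 of the 78 genes against the GC content of their transcripts, for each group, with colour for transcript length. The venetoclax points slope downward (Spearman −0.475) over a range of −1.97 to 1.04, and the other groups stay within 1 log2 unit of 0. Spearman correlations in those groups were −0.26 for CSA and −0.134 for the combination.

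The cytosolic ribosome gave different values in the same libraries. Of 82 tested cytosolic ribosomal protein genes, 78 were higher under the combination than under venetoclax, with a median log2 fold change of 0.28 beside the 0.03 of the mitochondrial set. Without venetoclax replicate 2 the medians were 0.08 and −0.07. In venetoclax against CSA, 73 of the 82 were lower, with a median of −0.34 beside −0.10, and both venetoclax libraries lay below both CSA libraries for 46 of them (56.1%, against 19.9% of all genes tested) and above for 0 (against 20.8%). Without that library the medians were −0.14 and −0.0019. In the combination against CSA they were −0.06 and −0.07. No cytosolic gene was called either (0 of 82 in each comparison). The comparisons share their libraries pairwise, and the difference between both sets was not tested.

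The genes that serve the mitochondrial ribosome were called in no comparison either, and the lists below are given by their counts. The small subunit proteins DAP3, AURKAIP1, CHCHD1, PTCD3 and the large subunit protein GADD45GIP1 are part of the structure under other symbols. DAP3, a GTP-binding protein, had close replicates: 84.9 and 86.5 CPM under venetoclax, 101.3 and 108 under CSA, and 109 and 110 under the combination. Both venetoclax libraries were the lowest, at a log2 fold change of 0.35 ± 0.14 for the combination against venetoclax (unadjusted p = 0.048, edgeR adjusted p = 0.457). Without venetoclax replicate 2 the value was 0.37.

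Of 27 assembly and rRNA modification factors, 19 were higher and 8 lower under the combination than under venetoclax (median 0.12), and 10 were higher and 17 lower against CSA (−0.08). Leaving out venetoclax replicate 2 made the first count 13 higher and 14 lower (−0.05). NGRN, needed for the large subunit's rRNA, was at 36.0 and 27.2 CPM under venetoclax and 46.0 and 46.2 under the combination (0.54 ± 0.19, adjusted p = 0.42). MTERF3, which takes part in large subunit assembly, was at 40.9 and 56.0 under venetoclax and 31.8 and 30.2 under CSA (0.64 ± 0.21, adjusted p = 0.633). In both the groups did not overlap, and without that library the values were 0.36 and 0.40. Of 17 translation factors, 5 were higher and 12 lower under the combination than under venetoclax (median −0.12), but 11 higher and 6 lower without venetoclax replicate 2 (0.03). The elongation factor TUFM was at 392 and 232 CPM under venetoclax, 404 and 379 under CSA, and 314 and 297 under the combination (−0.36 ± 0.26 against CSA).

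Among 20 mitochondrial tRNA synthetases and related enzymes, 5 were higher and 15 lower under the combination than under CSA (median −0.12). SARS2 had the smallest p of these (−0.47 ± 0.19, unadjusted p = 0.050, edgeR adjusted p = 0.9999) and was also lower under venetoclax than under CSA (−0.59 ± 0.19, adjusted p = 0.633, and −0.48 without venetoclax replicate 2). Of 16 genes for the import of presequence proteins, the route by which most ribosomal proteins enter, 12 were higher and 4 lower under the combination than under venetoclax (median 0.12). TIMM44, which tethers the import motor to the inner membrane channel, was at 87.6 and 57.6 CPM under venetoclax and 112 and 113 under the combination (0.63 ± 0.23, adjusted p = 0.42). Without that library 9 of the 16 were higher and 7 lower (0.03), and TIMM44 was at 0.36. Of 15 genes for mitochondrial transcription and DNA maintenance, 9 were higher and 6 lower in that comparison. MGME1, a nuclease of mitochondrial DNA, was at 32.0 and 43.3 under venetoclax and 26.1 and 24.5 under the combination (−0.57 ± 0.20, adjusted p = 0.419, and −0.34 without that library).

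Transcription factors whose motifs were searched were also measured, among 9 listed regulators of mitochondrial biogenesis, of which 8 were tested. PPARGC1A, at 0 to 0.132 CPM, was not. Binding of these factors was not tested. GABPA, the ETS factor, was at 53.5 and 79.1 CPM under venetoclax, 42.3 and 50.3 under CSA, and 49.0 and 50.1 under the combination. YY1 was at 189.5 and 212, 177 and 150.5, and 158 and 159. In both genes the venetoclax libraries were the highest 2, with log2 fold changes of the combination against venetoclax of −0.42 ± 0.23 for GABPA and −0.34 ± 0.16 for YY1 (adjusted p = 0.549 and 0.506). Leaving out venetoclax replicate 2 gave −0.11 and −0.25. NRF1 was at 23.55 and 18.35 CPM under venetoclax, 27.7 and 24.9 under CSA, and 25.05 and 23.4 under the combination. Its log2 fold change of the combination against venetoclax was 0.21 ± 0.20, or 0.05 without that library. Against CSA, MYC had the smallest p of this list, at 40.7 and 42.5 CPM under CSA and 45.5 and 58.5 under the combination (0.32 ± 0.24, adjusted p = 0.9999).

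The 13 mitochondrially encoded mRNAs, which the mitochondrial ribosome translates, had the widest changes of these lists. All 13 were lower under the combination than under venetoclax (median −1.66) and all 13 were higher under venetoclax than under CSA (2.33), and both medians changed sign without venetoclax replicate 2 (0.91 and −0.17). MT-ATP6, a subunit of ATP synthase, was at 1218 and 67950 CPM under venetoclax, 1218 and 1551 under CSA, and 1233 and 2592 under the combination. In the combination against CSA all 13 were higher on the TMM scale, with a median of 0.62, and combination replicate 2 (15.2% mitochondrial counts) was the higher of its pair. The groups did not overlap for 2 of these 13, against 23.5% of all genes tested. The ribosomal RNAs of mitochondria were not analysed here.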

How the data were processed

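RNA-seq counts per gene were read for 6 libraries in 3 groups of 2, grouped by the titles in the labels. Per the labels' protocols, Trizol was used to extract RNA, the KAPA RNA HyperPrep kit to build libraries, and sequencing was paired at 150 bp. The submitters' processing notes name STAR, RSEM, DESeq2 and hg38, with versions and roles not given in the sources used here. Counts are whole numbers as deposited, not normalized. The table has 2 further columns of per-sample values, which could not be tied to a sample and were not used.

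Symbols came from the reference table (20148 of 20263 identifiers matched), and coordinates, lengths and GC content from GENCODE release 29 (20224 matched), with the length and GC of a gene taken as the median over its annotated coding transcripts. Genes passing filterByExpr (12690) were scaled by TMM and went into edgeR 4.0.16 (R 4.3.3) with a robust quasi-likelihood fit, glmQLFit and glmQLFTest, two-sided, as 1 fit of the 6 libraries by group without a block. P-values were adjusted by Benjamini-Hochberg over all genes tested, with a threshold of 0.05. The error given with a log2 fold change is its standard error in that fit. The fit was tested on simulated data. Alternatives were DESeq2 1.42.0, limma-voom (limma 3.58.1), other scalings and filters, only the 4 libraries compared, a replicate block, removal of mitochondrially encoded genes or of trends with GC content or length, and leaving out each library. Added after seeing the data were DESeq2, the GC trend and the block, each without venetoclax replicate 2.

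The members, the gene lists and the subunit assignment, taken from textbook knowledge, were chosen with earlier results of these data known. The genes named were, in each comparison, members past the threshold with or without venetoclax replicate 2, the 5 highest and 5 lowest log2 fold changes, the 3 highest and 3 lowest levels per kilobase, 11 genes set by role, and for each list the 2 genes with the smallest p. Not all of the last were printed. Genes named as neighbours, and MRPL28, MRPL34, MRPL44, MRPS15 and MRPS24, were named after their values were seen. With 2 libraries in a group, precision is limited by the spread between them more than by depth, since each member had 155 to 5647 counts in a library. Promoters are RefSeq windows of GRCh38.p14.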

Additional observations from a re-analysis of the deposited data

How the results depend on the processing

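The number of members called was 0 in both directions in every comparison under all alternatives run but 1. Without venetoclax replicate 1, 7 were called higher and 8 lower with the combination against venetoclax, and 10 higher and 20 lower with venetoclax against CSA, so that leaving out each library in turn gave ranges of 0 to 7, 0 to 8, 0 to 10 and 0 to 20. The medians, which are small, moved by more than the spread between replicates as follows. Scaling by library size alone gave 0.26 for the combination against venetoclax, −0.11 for the combination against CSA and −0.39 for venetoclax against CSA, where the medians of all genes were 0.26, −0.04 and −0.31. Removing the trend with transcript length gave −0.0776, −0.0491 and 0.0488 in that order, so the sign turned in the first and the third. Without venetoclax replicate 2, removing the trend with GC content gave −0.0792 for the combination against venetoclax and 0.0253 for venetoclax against CSA, and DESeq2 gave −0.0768 and 0.00057. Leaving out each library in turn gave medians from −0.0735 (without venetoclax replicate 2) to 0.17 (without venetoclax replicate 1) for the combination against venetoclax, from −0.12 to −0.0336 for the combination against CSA, and from −0.24 (without venetoclax replicate 1) to −0.0019 (without venetoclax replicate 2) for venetoclax against CSA. MRPL36 in the combination against venetoclax turned from −0.02 to 1.10 without venetoclax replicate 1 (edgeR adjusted p = 0.018), and leaving out each library in turn gave −0.63 to 1.10. The cause of these shifts was not tested. With the replicate number as a block, 0 members were called in each comparison and the medians were 0.06, −0.08 and −0.11. Same-numbered libraries deviated together in part (correlations 0.192, 0.253 and 0.164), but each comparison has only 2 pairs and nothing in the labels says what a number marks. For the 33 members chosen by the naming rule, over the 3 comparisons and all alternatives, single-gene results kept their direction and side of the threshold in 1758 cases, passed it in the same direction in 31, changed sign without passing it in 190 and changed sign and passed it in 1. The other members are not in these counts. Some of the 1758 cases could hardly change. Leaving out a library of the group not compared keeps a fold change nearly as it was, and some scalings and filters stay close to the main fit.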
